A study of Homo sapiens with 32 samples.

Results

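The comparison described here is that of SAHA with DMSO in the cell line Huh7, on 8 of the 32 arrays of the series. Its members were chosen by the sample titles alone: the 4 arrays titled as Huh7 with SAHA and the 4 titled as their Huh7 controls, both within the SAHA subset. Huh7 is a hepatocellular carcinoma cell line that keeps much of the expression of liver cells. The 4 treated samples received SAHA (vorinostat, a hydroxamic acid that blocks zinc-dependent histone deacetylases), and the 4 control samples received DMSO, its solvent; neither group carried an siRNA. The other arrays, which entered the same model, were HepG2, a hepatoblastoma line, with SAHA or DMSO, and both lines with an siRNA against HDAC2 or a scrambled siRNA (4 arrays in each of 6 groups). Biotin-labelled copies of the total RNA were hybridised to Illumina bead arrays, on which each probe gives a brightness that reflects the amount of 1 transcript. No label used here gives the dose, the time of exposure or the number of cultures behind the arrays of a group, so a p-value covers the spread from array to array and no more. Huh7 with SAHA was compared as 1 line at 1 condition, and nothing here separates an effect on transcription from one on transcript stability or on the number of surviving cells.

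Histone deacetylases remove acetyl groups from lysines of histones and of many other proteins. They act in large complexes with corepressors that DNA-binding factors bring to genes, and an inhibitor such as SAHA leaves histones more acetylated. In tumour lines such inhibitors are known for raising the cell cycle inhibitor CDKN1A, for slowing division and for switching on genes that are silent in the tissue of origin, among them genes of neurons.

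The labelled cell type matched its markers. Of 9 hepatocyte markers, 8 were detected on all 8 arrays (detected means a detection p under 0.05 against the negative control beads), and HNF4A was detected on all 4 DMSO arrays and on 1 SAHA array; the tumour markers AFP and GPC3 were detected on all 8. An array detected from 50.4% to 54.9% of its probes, and the median raw brightness was 118.2 to 193.2. The arrays of a group correlated with each other at 0.987 to 0.994 and with arrays of the other group at 0.903 to 0.911, and 86.1% of the variance among the 8 arrays lay along 1 axis that separated SAHA from DMSO. All values below are log2 signals after background correction and quantile normalization. A change is the mean of 4 SAHA arrays minus that of the 4 DMSO arrays, the limma model gives its standard error (SE), and array values are given in the order of the replicate numbers 1 to 4. Sizes given after "rose by" or "fell by" are log2 changes unless marked as a fold. A fold given as "at least" belongs to a probe that no array of its dimmer group detected, and compares the brighter group with the lowest detected signal of each array of the dimmer one. A gene is said to rise or fall where the p of limma was under 0.05 after Benjamini-Hochberg adjustment across the 12973 genes tested. A signal of 1 probe is not set against that of another, since probes differ in how brightly they bind.

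SAHA changed most of the genes tested in Huh7. Of 12973 genes tested, 4094 rose (31.6%) and 3774 fell (29.1%), so that 60.6% were called, and the median change of all genes was 0.005. The share called depended on which genes were tested. It was 43.4% of 18310 genes with no detection filter and 69% of 10912 with only the 8 Huh7 arrays. With only probes detected on all 32 arrays it was 73.6% of 7255. Among the called genes 4739 changed less than 2-fold. Rises of at least 8-fold were called for 81 genes (0.624%) and falls of that size for 95 (0.732%). For 7132 genes, or 55%, the 4 SAHA arrays did not overlap the 4 DMSO arrays. The split between rises and falls depended on the scaling: 52% of the called genes rose after quantile normalization, and 39.1% with each array scaled to one median, which moved the median of all genes to -0.128.

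Rises and falls were spread differently over dim and bright probes. Genes were put into 4 equal bins by their mean signal on the 4 Huh7 arrays with scrambled siRNA, which took no part in the comparison. In the dimmest bin, from 4.51 to 5.57, 27.5% rose and 8.97% fell, while in the brightest bin, above 9.44, 31.6% rose and 42.5% fell. A probe near background has little room to fall, so few falls could be measured in the dimmest bin. Genes were tested only if at least 4 of the 32 arrays detected them, and for dim genes these could be SAHA arrays. From the dimmest bin to the brightest, rises of at least 2-fold numbered 472, 468, 434 and 247, and falls of at least 2-fold 69, 365, 560 and 514.

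**Figure D1:**
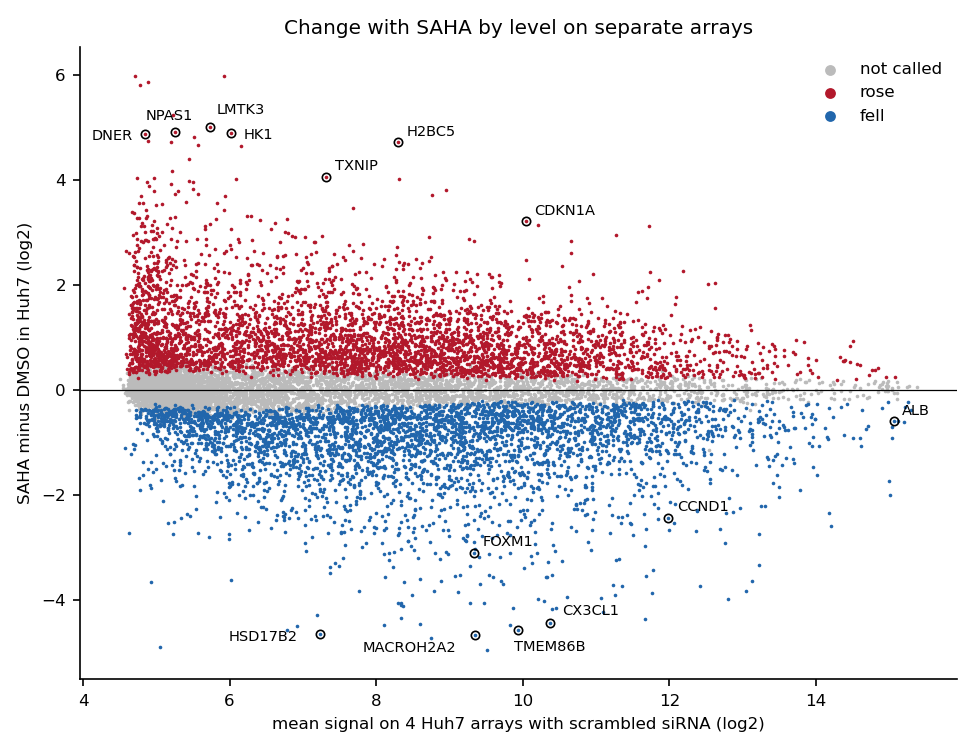
Change with SAHA in Huh7 (SAHA minus DMSO, log2, vertical axis) against the mean signal on the 4 Huh7 arrays with scrambled siRNA (log2, horizontal axis) for the 12973 genes tested; called genes are coloured and a few named genes are marked. Points of large rises lie at dim and middle signals, with few at the bright end, and few points of large falls lie at the dim end.

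Several of the largest rises were of genes best known from the brain. LMTK3, the gene of a kinase expressed in brain, read 6.24, 6.36, 6.39 and 6.10 on the DMSO arrays and 11.29, 11.13, 11.50 and 11.25 on the SAHA arrays. The groups lay far apart, and the rise was 5.02 (SE 0.15, adjusted p = 4.89e-22). NPAS1, a transcription factor of certain inhibitory neurons, read 5.19, 4.94, 5.48 and 4.85 on the DMSO arrays and 9.94, 9.84, 10.31 and 10.01 on the SAHA arrays. Only 1 of its 4 DMSO arrays was detected, all 4 SAHA arrays were, and the rise was 4.91 (SE 0.17, adjusted p = 3.45e-21). DNER, a neuronal transmembrane ligand of NOTCH receptors, read 4.96, 4.96, 4.94 and 5.47 on the DMSO arrays and 10.18, 10.33, 9.55 and 9.79 on the SAHA arrays. DMSO array 4 was the one above background, the groups did not overlap, and the rise was 4.88 (SE 0.16, adjusted p = 2.45e-21).

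Genes of glucose handling stood beside them. HK1, the hexokinase of most tissues other than liver, read 6.87, 6.31, 6.78 and 6.39 on the DMSO arrays and 11.52, 11.44, 11.65 and 11.36 on the SAHA arrays. The SAHA arrays lay within a narrow band far above the DMSO arrays, a rise of 4.90 (SE 0.17, adjusted p = 8.54e-21). SLC2A3, a glucose transporter typical of neurons, read 5.96, 5.80, 5.96 and 5.76 on the DMSO arrays and 10.68, 10.58, 10.54 and 10.32 on the SAHA arrays. Its rise was 4.66 (SE 0.12, adjusted p = 5.46e-24), with no overlap. TXNIP, which binds thioredoxin and restrains glucose uptake, read 6.11, 5.51, 5.44 and 5.84 on the DMSO arrays and 9.62, 10.03, 9.63 and 9.88 on the SAHA arrays. It was higher on every SAHA array than on any DMSO array, by a mean of 4.07 (SE 0.19, adjusted p = 7.97e-18). Its relative ARRDC4, also a brake on glucose uptake, rose by at least 5.46-fold.

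Further genes among the 20 largest rises were TMEM59L (5.87), KCNAB1, a subunit of potassium channels (4.18), DACT3, an inhibitor of WNT signalling (4.05), and the microRNA host transcript MIR7-3HG (4.40). KCNAB1 read 4.85, 5.69, 5.23 and 5.71 on the DMSO arrays and 9.42, 9.49, 9.62 and 9.69 on the SAHA arrays. Its DMSO arrays spread around the limit of detection, with 2 of 4 detected, and none of them reached the SAHA arrays. DACT3 read 5.58, 4.96, 5.37 and 5.30 on the DMSO arrays and 9.31, 9.32, 9.44 and 9.34 on the SAHA arrays, with the 4 SAHA arrays within a range far narrower than the gap.

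**Figure D2:**
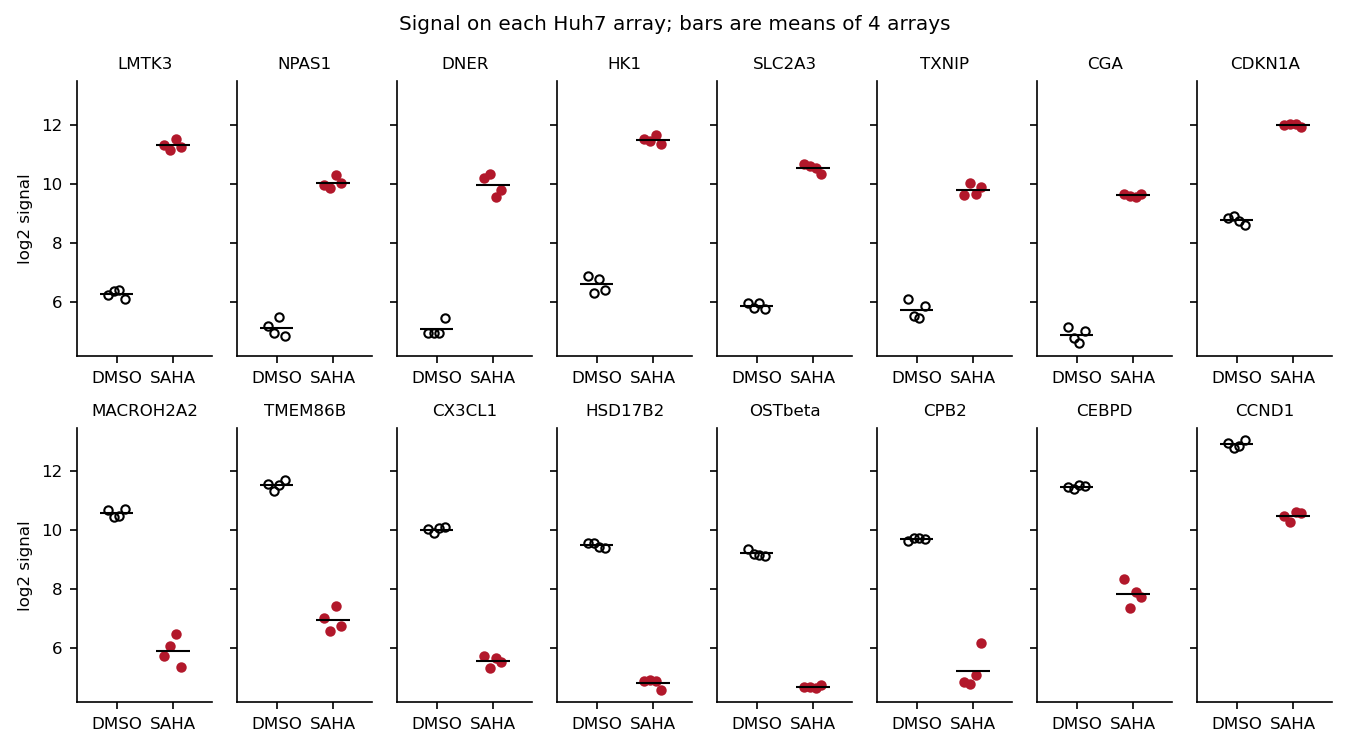
Log2 signal of 16 named genes on each of the 4 DMSO arrays (open circles) and 4 SAHA arrays (filled circles) of Huh7, with a bar at each group's mean; 8 genes rose and 8 fell. In every panel the groups do not overlap, and the gap is wider than the spread within either group.

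Some genes passed from below background to clearly measured. On all 4 SAHA arrays and no DMSO array, 320 genes (2.47% of those tested) were detected, and 168 (1.29%) showed the reverse. For these the fold is a bound. CGA, which encodes the alpha chain shared by the pituitary and placental glycoprotein hormones, read 5.16, 4.78, 4.59 and 5.00 on the DMSO arrays and 9.66, 9.60, 9.54 and 9.64 on the SAHA arrays; it was at least 19.3-fold higher with SAHA (fitted change 4.73, SE 0.17, adjusted p = 2.04e-20). DNAAF3, needed to assemble dynein arms of motile cilia, was at least 21.5-fold higher. TCN2, the blood carrier of vitamin B12, was at least 12.1-fold higher, and ZCCHC12, a zinc knuckle gene expressed in brain, at least 12.5-fold.

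HLA-DMB, a chain of the chaperone that loads peptides on MHC class II, read 4.83, 4.60, 4.74 and 4.90 on the DMSO arrays and 9.01, 8.65, 8.80 and 8.76 on the SAHA arrays. It was at least 11.1-fold higher, while its partner HLA-DMA rose by at least 3.47-fold. FSTL5 was at least 10.8-fold higher, the histone gene H4C8 at least 9.26-fold, the NKG2D ligand gene RAET1G at least 7.86-fold and SLC17A7, the vesicular glutamate transporter, at least 7.76-fold. BHMT, a liver enzyme that remethylates homocysteine, was at least 7.09-fold higher, and HAND1, a transcription factor of heart and trophoblast, at least 6.88-fold.

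The largest losses, from detected on all DMSO arrays to detected on no SAHA array, included genes of liver metabolism and transport. HSD17B2, an enzyme that inactivates oestradiol and testosterone, read 9.55, 9.57, 9.44 and 9.39 on the DMSO arrays and 4.90, 4.92, 4.88 and 4.60 on the SAHA arrays. No SAHA array was detected, and the fall was at least 18.1-fold (fitted change -4.66, SE 0.17, adjusted p = 2.84e-20). SAA4, a lipoprotein-bound protein of the serum amyloid A family, fell at least 17.8-fold. SLC22A9, an organic anion transporter of liver, fell at least 11.8-fold, AKR1B10, an aldo-keto reductase, at least 11.3-fold, CPN1, a chain of plasma carboxypeptidase N, at least 8.73-fold, and AADAC, a microsomal esterase, at least 6.96-fold.

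Genes that make or carry bile acids were among them. OSTbeta, the beta subunit of the basolateral bile acid exporter, read 9.37, 9.18, 9.18 and 9.12 on the DMSO arrays and 4.70, 4.70, 4.64 and 4.77 on the SAHA arrays. The SAHA arrays were all below detection and close together, and the fall was at least 15-fold. ACOX2, the peroxisomal oxidase that shortens bile acid side chains, fell at least 13.5-fold, and HSD3B7, an early enzyme of bile acid synthesis, at least 7-fold. CYP27A1, which starts the acidic route of that synthesis, fell by 2.92 (SE 0.13, adjusted p = 3.04e-18). The pumps ABCC3 and ABCC2, which move conjugates to blood and bile, fell by 4.18 and 3.57. Of the list of liver membrane transporters, 2 of 27 members tested rose and 13 fell (median change -0.38); ABCB1, which encodes a multidrug pump, rose by 1.02, and ABCA3, a lipid transporter known from lung, by at least 2.56-fold.

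The largest falls otherwise joined genes of several roles. MACROH2A2, a histone H2A variant with a macrodomain, read 10.69, 10.46, 10.48 and 10.73 on the DMSO arrays and 5.73, 6.09, 6.48 and 5.37 on the SAHA arrays. SAHA array 4 was not detected, the 4 SAHA arrays spread over more than 1 log2 unit and still lay far below every DMSO array, and the fall was 4.67 (SE 0.13, adjusted p = 7.25e-23). TMEM86B, an enzyme that breaks down lysoplasmalogen, read 11.57, 11.33, 11.53 and 11.68 on the DMSO arrays and 7.02, 6.59, 7.43 and 6.75 on the SAHA arrays, a fall of 4.58 with no overlap. CX3CL1, a membrane-bound chemokine, read 10.03, 9.90, 10.06 and 10.09 on the DMSO arrays and 5.74, 5.34, 5.66 and 5.55 on the SAHA arrays. Both groups were tight, and the fall was 4.45 (SE 0.14, adjusted p = 4.89e-22). TRIP6, a LIM protein of focal adhesions, fell by 4.37, INHBE, the activin chain made in liver, by 4.35, and HGD, which breaks down homogentisate from tyrosine, by 4.24. GTF2I fell by 4.47 by its brighter probe, while its other detected probe gave 0.14 (adjusted p over probes = 0.578).

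Across all genes with more than 1 detected probe the probes seldom opposed each other, but they often differed in whether they were called. Of 2384 such genes, all probes rose for 358, all fell for 453 and none was called for 616. For 444 genes (18.6%) at least 1 probe fell and at least 1 was not called. For 456 (19.1%) at least 1 rose and at least 1 was not called. The call of such a gene depends on the probe that stands for it. Probes of 57 genes were called in opposite directions.

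Among the genes for classical, zinc-dependent histone deacetylases, 1 was called with a fitted change of at least 2-fold. Of 11 such genes 3 rose and 2 fell, beside 31.6% and 29.1% over all genes tested. HDAC3 read 10.38, 10.05, 10.08 and 10.13 on the DMSO arrays and 11.54, 11.62, 11.49 and 11.59 on the SAHA arrays. It rose by 1.40 (SE 0.10, adjusted p = 4.17e-13) with no overlap. HDAC1 and HDAC2 rose by 0.39 and 0.45, but by an uncalled 0.14 and 0.13 with each array scaled to one median. HDAC4 and HDAC7 fell by 0.47 and at least 1.03-fold, and HDAC6, a mostly cytoplasmic tubulin deacetylase, gave 0.24, adjusted p = 0.0849. It was called at 0.35 (adjusted p = 0.0137) without DMSO array 1 and at 0.30 (adjusted p = 0.0491) without SAHA array 1. Among 6 sirtuins, NAD-dependent deacetylases that SAHA does not block, 3 rose and 1 fell; SIRT4 rose by 2.13 and SIRT1 by 0.68.

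Other chromatin genes moved in both directions. Of the acetyltransferase and BET list, 6 of 20 members tested rose and 5 fell (median change -0.05). Over all genes tested 31.6% rose and 29.1% fell, and this list was near those shares. KAT6A and NCOA3 rose by 1.37 and 1.25, and BRD9 and KAT2A fell by 1.27 and 0.91. Of the remodelling subunits, 7 of 26 members tested rose and 13 fell (median change -0.14), with a median of 0.02 over 28 genes without the detection filter. SMARCA2, one of the 2 alternative ATPases of SWI/SNF, read 5.26, 5.34, 4.88 and 5.50 on the DMSO arrays and 8.31, 8.33, 8.22 and 8.43 on the SAHA arrays. It was detected on 1 DMSO array and all 4 SAHA arrays and rose by 3.08 (SE 0.17, adjusted p = 6.43e-16), while its counterpart SMARCA4 fell by 0.78 and the core subunit SMARCB1 by 1.87. DPF1 and ACTL6B, the subunits of the neuronal form of the complex, rose by 2.16 and at least 1.66-fold.

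Among Polycomb and DNA methylation genes 10 of 26 members tested rose and 9 fell (median change -0.05). The shares over all genes tested were 31.6% and 29.1%. PHF19, which reads methylated histone H3 for Polycomb, fell by 2.89, the maintenance methyltransferase DNMT1 by 0.76 and its partner UHRF1 by 1.36. CBX7, JARID2 and BMI1, which belong to or accompany Polycomb complexes, rose by 1.87, 1.28 and 1.17. Of the corepressor subunits, 11 of 31 members tested rose and 10 fell (median change 0.10), near the shares over all genes tested. Their median was -0.12 where each array was scaled to one median. MTA1 and MBD3 of NuRD fell by 1.48 and 1.25, and HMG20B and GPS2 rose by 1.48 and 1.20.

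Of the histone genes of the large clusters, which are normally transcribed in S phase, most of those tested rose, while replication genes fell. Of the clustered histone genes 23 of 29 members tested rose and 2 fell (median change 1.71). The array held 44 of these genes, and those not tested were detected on too few arrays. The median DMSO signal of the members tested was 5.58, and a dim probe has little room to fall. A member silent in the controls could be tested because SAHA arrays detected it. How far this raised the share that rose was not tested. H2BC5 read 8.49, 8.60, 8.88 and 8.73 on the DMSO arrays and 13.70, 13.33, 13.35 and 13.23 on the SAHA arrays. All SAHA arrays lay more than 4 log2 units above all DMSO arrays, a rise of 4.73 (SE 0.22, adjusted p = 4.59e-18). H3C10 rose by 3.90, H2AC8 by at least 4.63-fold, and the gene listed as HIST1H2BG by 4.82. H4C3 fell by 1.28 and H2BC9 by 0.69. Probes of near-identical histone genes can bind each other's transcripts, so the member that moved is uncertain. Of the replacement histones, which are made throughout the cycle, 5 of 11 rose and 4 fell; H2AJ rose by 1.82 and the linker histone H1-10 by 1.41, and CENPA and H2AX fell by 1.38 and 1.46.

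Inhibitors of the cell cycle rose more often than they fell. CDKN1A encodes the cyclin-dependent kinase inhibitor p21, and it read 8.82, 8.90, 8.72 and 8.61 on the DMSO arrays and 11.98, 12.02, 12.02 and 11.91 on the SAHA arrays. The groups did not overlap, and the rise was 3.22 (SE 0.10, adjusted p = 8.67e-22); a second, dim probe of the gene, detected on 1 of the 8 arrays, gave 0.30 (adjusted p over probes = 0.184). Of the 8 inhibitor genes 5 rose and 1 fell: CDKN2D rose by 2.09, CDKN1C by at least 1.63-fold and CDKN2B by 0.99, while CDKN2A, which encodes p16 and ARF, fell by 1.65 and CDKN1B gave -0.08, adjusted p = 0.513, but was called lower under median scaling (-0.43, adjusted p = 0.00406).

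The D-type cyclins moved in opposite directions. CCND1 read 12.96, 12.80, 12.87 and 13.04 on the DMSO arrays and 10.47, 10.29, 10.60 and 10.58 on the SAHA arrays, a fall of 2.43 (SE 0.10, adjusted p = 1.77e-19). CCND2 read 5.07, 4.59, 4.81 and 4.72 on the DMSO arrays and 7.03, 7.06, 7.27 and 7.35 on the SAHA arrays. It was detected on no DMSO array and on all 4 SAHA arrays, at least 3.58-fold higher, and CCND3 rose by 1.32. Their partner kinase CDK4 fell by 1.24, the phosphatase CDC25A by 2.82 and the activator E2F2 by 2.40, while RB1 and RBL2, which hold E2F in check, rose by 0.65 and 0.35. The rise of RB1 was not called without DMSO array 1 (0.47, adjusted p = 0.0613) or without SAHA array 2 (0.49, adjusted p = 0.0566), and that of RBL2 was 0.04 and not called with each array scaled to one median. Of the whole G1 list, 5 of 22 members tested rose and 14 fell (median change -0.64).

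Replication genes fell together. Of the licensing and helicase genes 5 of 26 members tested rose and 16 fell (median change -1.30). MCM6, a subunit of the replicative helicase, read 12.55, 12.51, 12.50 and 12.63 on the DMSO arrays and 10.27, 10.39, 10.36 and 10.19 on the SAHA arrays, a fall of 2.25 (SE 0.09, adjusted p = 4.13e-19) with no overlap. MCM2, MCM7 and the helicase cofactor CDC45 fell by 2.71, 1.91 and 2.29, while the origin subunits ORC4 and ORC5 rose by 1.60 and 0.82. Of the polymerase and clamp genes 2 of 24 members tested rose and 19 fell (median change -0.94), with POLE2 and FEN1 lower by 1.86 and 1.50. Of the nucleotide supply genes 1 of 23 members tested rose and 19 fell (median change -0.87). The ribonucleotide reductase subunit RRM2 fell by 2.66 and the cytidine triphosphate synthase CTPS1 by 2.51, and RRM2B, the p53-regulated subunit, rose by 0.85.

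Mitotic genes fell as well. Of the mitotic kinases, cyclins and checkpoint genes 2 of 26 members tested rose and 22 fell (median change -1.14), and of the kinetochore, spindle and cytokinesis genes 2 of 36 members tested rose and 26 fell (median change -0.96). FOXM1, the transcription factor of the late cycle, read 10.25, 9.58, 9.89 and 10.00 on the DMSO arrays and 6.71, 7.29, 7.11 and 6.20 on the SAHA arrays. The SAHA arrays spread over more than 1 log2 unit, replicate 4 lowest, and still lay below all DMSO arrays, a fall of 3.10 (SE 0.16, adjusted p = 9.33e-17). CCNA2, the cyclin of S phase and mitotic entry, fell by 2.67, AURKB by 2.54, PKMYT1 by at least 4.98-fold, CENPM by 2.38 and BIRC5, which encodes survivin, by 2.17. The kinase gene NEK2 was called higher by 0.49, but with each array scaled to one median it gave 0.09 and was not called. DNA repair genes followed: 3 of 36 members tested rose and 21 fell (median change -0.63), with CHEK1 and RAD54L lower by 2.23 and 2.11 and ERCC2 and XRCC2 higher by 1.79 and 1.51.

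**Figure D3:**
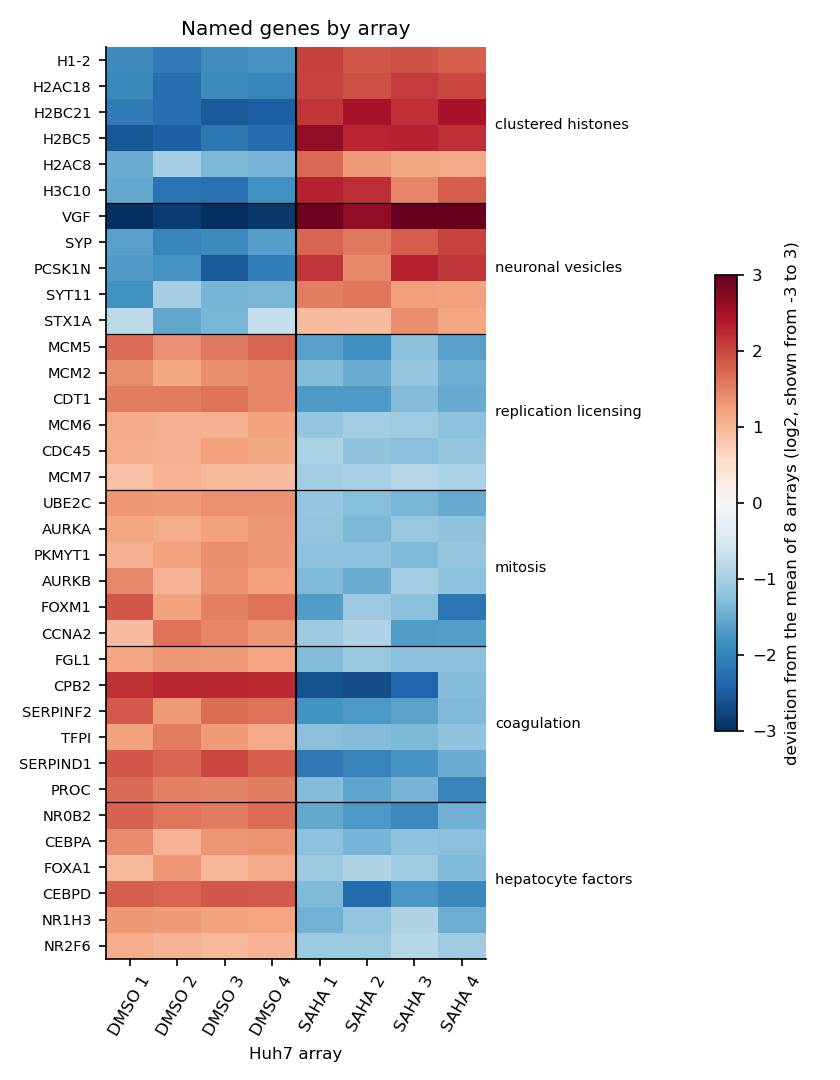
Deviation of each array from the mean of the 8 arrays (log2, colour scale) for 35 named genes in 6 groups of 5 or 6, with the DMSO arrays on the left and the SAHA arrays on the right. The clustered histone and neuronal vesicle genes shown were picked among members that rose, by the smallest p. The replication, mitotic, coagulation and hepatocyte transcription factor genes were picked among members that fell. The direction of each group was thus set by the choice, and members that went the other way are not shown. The 4 arrays of a group look alike.

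Promoters of some genes that rose or fell are shown as examples. The genes, and the motifs marked in each, were picked by hand. Each line gives the 250 bases before the gene's start, 5′ to 3′ along the gene, from RefSeq on GRCh38.p14. Capitals mark the motifs named after each gene in the next sentences, found on either strand. Some matches to other motifs were left in small letters. The positions are chr7:101165570-101165819, minus strand for VGF, chr6:87095107-87095356, minus strand for CGA, chr1:145996580-145996829, minus strand for TXNIP, chr1:149886683-149886932, minus strand for H2BC21, chr6:36678464-36678713, plus strand for CDKN1A, chr2:135876444-135876693, minus strand for MCM6 and chr4:121823884-121824133, minus strand for CCNA2.
VGF: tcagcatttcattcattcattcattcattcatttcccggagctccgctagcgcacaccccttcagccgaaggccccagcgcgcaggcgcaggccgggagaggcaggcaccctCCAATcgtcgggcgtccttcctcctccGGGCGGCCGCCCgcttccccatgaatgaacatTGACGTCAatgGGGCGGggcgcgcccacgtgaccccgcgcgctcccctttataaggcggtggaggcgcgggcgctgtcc
CGA: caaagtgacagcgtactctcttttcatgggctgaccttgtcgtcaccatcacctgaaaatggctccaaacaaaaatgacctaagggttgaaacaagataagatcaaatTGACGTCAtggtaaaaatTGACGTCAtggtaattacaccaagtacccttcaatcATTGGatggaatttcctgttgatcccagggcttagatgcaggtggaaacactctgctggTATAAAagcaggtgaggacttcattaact
TXNIP: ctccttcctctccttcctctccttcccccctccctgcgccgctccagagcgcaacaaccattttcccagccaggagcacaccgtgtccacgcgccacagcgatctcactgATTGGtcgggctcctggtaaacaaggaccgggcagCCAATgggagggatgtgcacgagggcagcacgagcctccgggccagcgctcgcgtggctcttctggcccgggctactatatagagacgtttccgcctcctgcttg
H2BC21: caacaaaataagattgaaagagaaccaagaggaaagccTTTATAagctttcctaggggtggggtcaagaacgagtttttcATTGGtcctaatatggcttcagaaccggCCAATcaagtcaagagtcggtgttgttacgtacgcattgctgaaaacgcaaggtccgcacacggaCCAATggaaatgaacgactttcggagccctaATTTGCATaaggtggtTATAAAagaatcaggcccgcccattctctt
CDKN1A: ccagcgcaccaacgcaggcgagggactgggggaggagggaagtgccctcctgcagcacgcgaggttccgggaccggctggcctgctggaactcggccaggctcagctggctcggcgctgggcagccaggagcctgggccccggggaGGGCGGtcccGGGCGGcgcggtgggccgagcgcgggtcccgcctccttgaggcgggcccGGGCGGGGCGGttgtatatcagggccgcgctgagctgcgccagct
MCM6: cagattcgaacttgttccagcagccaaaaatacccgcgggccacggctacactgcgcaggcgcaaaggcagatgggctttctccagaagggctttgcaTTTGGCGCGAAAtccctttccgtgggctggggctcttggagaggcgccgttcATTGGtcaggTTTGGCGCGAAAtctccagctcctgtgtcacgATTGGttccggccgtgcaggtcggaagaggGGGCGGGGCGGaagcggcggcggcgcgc
CCNA2: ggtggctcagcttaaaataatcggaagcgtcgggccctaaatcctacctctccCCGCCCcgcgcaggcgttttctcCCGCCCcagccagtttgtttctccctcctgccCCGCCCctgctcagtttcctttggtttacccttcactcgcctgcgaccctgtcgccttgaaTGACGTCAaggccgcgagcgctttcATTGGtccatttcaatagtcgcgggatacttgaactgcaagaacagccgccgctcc
In VGF the capitals are 1 cyclic AMP response element (CRE, TGACGTCA), 3 GC boxes (GGGCGG, or CCGCCC on the other strand) and 1 CCAAT box (CCAAT, or ATTGG on the other strand). CGA holds 2 such CREs, 1 CCAAT box and 1 TATA box (TATAAA). TXNIP holds 2 CCAAT boxes, and H2BC21 holds 3, with 2 TATA boxes and 1 octamer (ATTTGCAT). CDKN1A holds 4 GC boxes, the last 2 overlapping. MCM6 holds 4 E2F matches (TTTGGCGC, TTTCGCGC, TTTCCCGC or TTTGCCGC) in 2 places where both strands match, with 2 CCAAT boxes and 2 GC boxes. CCNA2, which fell, holds a CRE as do VGF and CGA, which rose, with 1 CCAAT box and 3 GC boxes.

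Over all genes the same letters were common or rare to different degrees. A promoter was matched by symbol for 10123 of 12973 genes tested, with the first start listed for each gene, and motifs were counted on both strands whether or not they overlapped another motif. The GC box was in 64.7% of all matched promoters, in 69.6% of the 1252 of genes that rose at least 2-fold and in 63.6% of the 1192 of genes that fell at least 2-fold. The CCAAT box was in 35.4%, 41.5% and 29.4%, and the CRE in 2.87%, 4.55% and 2.18%, in the same order. E2F motifs were in 4.26% of all promoters and in 26.1% of those of 23 licensing and helicase genes. Of 28 clustered histone promoters 82.1% held a CCAAT box, 71.4% a TATA box and 42.9% the octamer, which 1.38% of all promoters held. Promoters of 121 genes detected on all DMSO arrays and no SAHA array held a median of 10 CpG pairs, against 20 over all matched promoters and 17 for 228 genes of the reverse pattern. These are matches of letters, with no test, and say nothing of what binds there.

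Genes of the p53 response and of cell death moved both ways. Of the p53 targets 12 of 23 members tested rose and 4 fell (median change 0.61). The death receptor TNFRSF10B rose by 1.10, and SESN1 and PLK2 by 1.11 and 1.04. Of the BCL2 family 5 of 18 rose and 6 fell, near the 31.6% and 29.1% over all genes tested. The pro-apoptotic BIK rose by at least 2.79-fold and PMAIP1 by 1.18, as did the protective MCL1 by 1.06; BID, which links death receptors to mitochondria, read 9.50, 9.40, 9.46 and 9.46 on the DMSO arrays and 5.96, 5.80, 6.08 and 5.71 on the SAHA arrays and fell by 3.57 (SE 0.19, adjusted p = 1.46e-16). Among caspase and death receptor genes 9 of 27 members tested rose and 12 fell (median change -0.07). CASP4, an inflammatory caspase, fell by 3.91, the receptor TNFRSF1A by 3.05 and the caspase inhibitor CFLAR by 2.19.

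Autophagy and lysosome genes rose more often than they fell. Of the autophagy genes 18 of 33 members tested rose and 4 fell (median change 0.39). MAP1LC3A rose by 2.38, ATG2A by 1.73 and the cargo receptor OPTN by 1.71. Of the lysosomal genes 25 of 39 members tested rose and 11 fell (median change 0.65). NEU1, the lysosomal sialidase, rose by 2.47, LIPA, the acid lipase, by 2.06, CTSF by 2.38 and the proton pump subunit ATP6V0D1 by 1.69. NEU4, another sialidase, had the largest fall of all genes, 4.97, and ARSB fell by 2.30.

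Secreted liver proteins fell. Of the albumin, carrier and receptor genes 0 of 18 members tested rose and 13 fell (median change -1.07). ALB read 15.19, 15.19, 15.22 and 15.15 on the DMSO arrays and 14.61, 14.62, 14.59 and 14.59 on the SAHA arrays, one of the brightest probes of the array, and fell by 0.59 (SE 0.10, adjusted p = 1.17e-05), less than 2-fold. RBP4, the retinol carrier, fell by 2.65, ITIH2 by 2.73, the vitamin D carrier GC by 1.77 and transferrin, TF, by 1.43. Of the apolipoprotein and lipoprotein genes 2 of 23 members tested rose and 14 fell (median change -0.90): APOC3 fell by 3.91, APOC1 by 3.74 and MTTP, which loads lipid on nascent lipoproteins, by 2.95, while SORT1 and PLTP rose by 1.92 and 1.84.

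Clotting genes mostly fell, and complement genes fell more often than they rose over the members tested. Of the coagulation genes 2 of 27 members tested rose and 20 fell (median change -1.03). CPB2, which encodes a plasma carboxypeptidase that slows clot breakdown, read 9.64, 9.73, 9.73 and 9.70 on the DMSO arrays and 4.86, 4.79, 5.09 and 6.16 on the SAHA arrays. SAHA array 4 was detected and the other 3 were not, and the fall was 4.47 (SE 0.17, adjusted p = 8.43e-20). The heparin cofactor SERPIND1 fell by 3.71, protein C, PROC, by 3.13, and KNG1, the kininogen gene, by 4.29; tissue factor, F3, rose by 0.92. Of the complement genes 6 of 23 members tested rose and 12 fell (median change -0.49), with a median of 0.20 over the 8 members detected on all 32 arrays. The secreted components C3 and CFB fell by 1.78 and 1.68, and MASP1 by 3.07, whereas the membrane regulators CD46, CD55 and CD59 rose by 1.40, 1.28 and 0.63, the last not called with the mean of its probes (0.23). Acute phase genes gave 1 of 18 members tested rose and 8 fell (median change -0.31), with ORM1 and ORM2, whose probes may share transcripts, lower by 3.24 and 3.40 and fibronectin, FN1, higher by 1.79.

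Transcription factors of hepatocytes fell. Of the list of hepatocyte transcription factors and nuclear receptors 1 of 33 members tested rose and 22 fell (median change -0.70). CEBPD read 11.47, 11.41, 11.52 and 11.49 on the DMSO arrays and 8.33, 7.36, 7.92 and 7.73 on the SAHA arrays, a fall of 3.64 (SE 0.16, adjusted p = 1.22e-18) with no overlap. The liver X receptor NR1H3 fell by 2.50 and NR2F6 by 2.07. RARB, a retinoic acid receptor often silent in tumours, was the one member that rose, by 2.03. HNF4A, a nuclear receptor central to hepatocyte identity and named here as a marker, read 6.31, 6.89, 6.92 and 6.32 on the DMSO arrays and 5.28, 5.09, 5.02 and 4.64 on the SAHA arrays, with 1 SAHA array detected, and fell by 1.60 (SE 0.20, adjusted p = 3.19e-08).

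**Figure D4:**
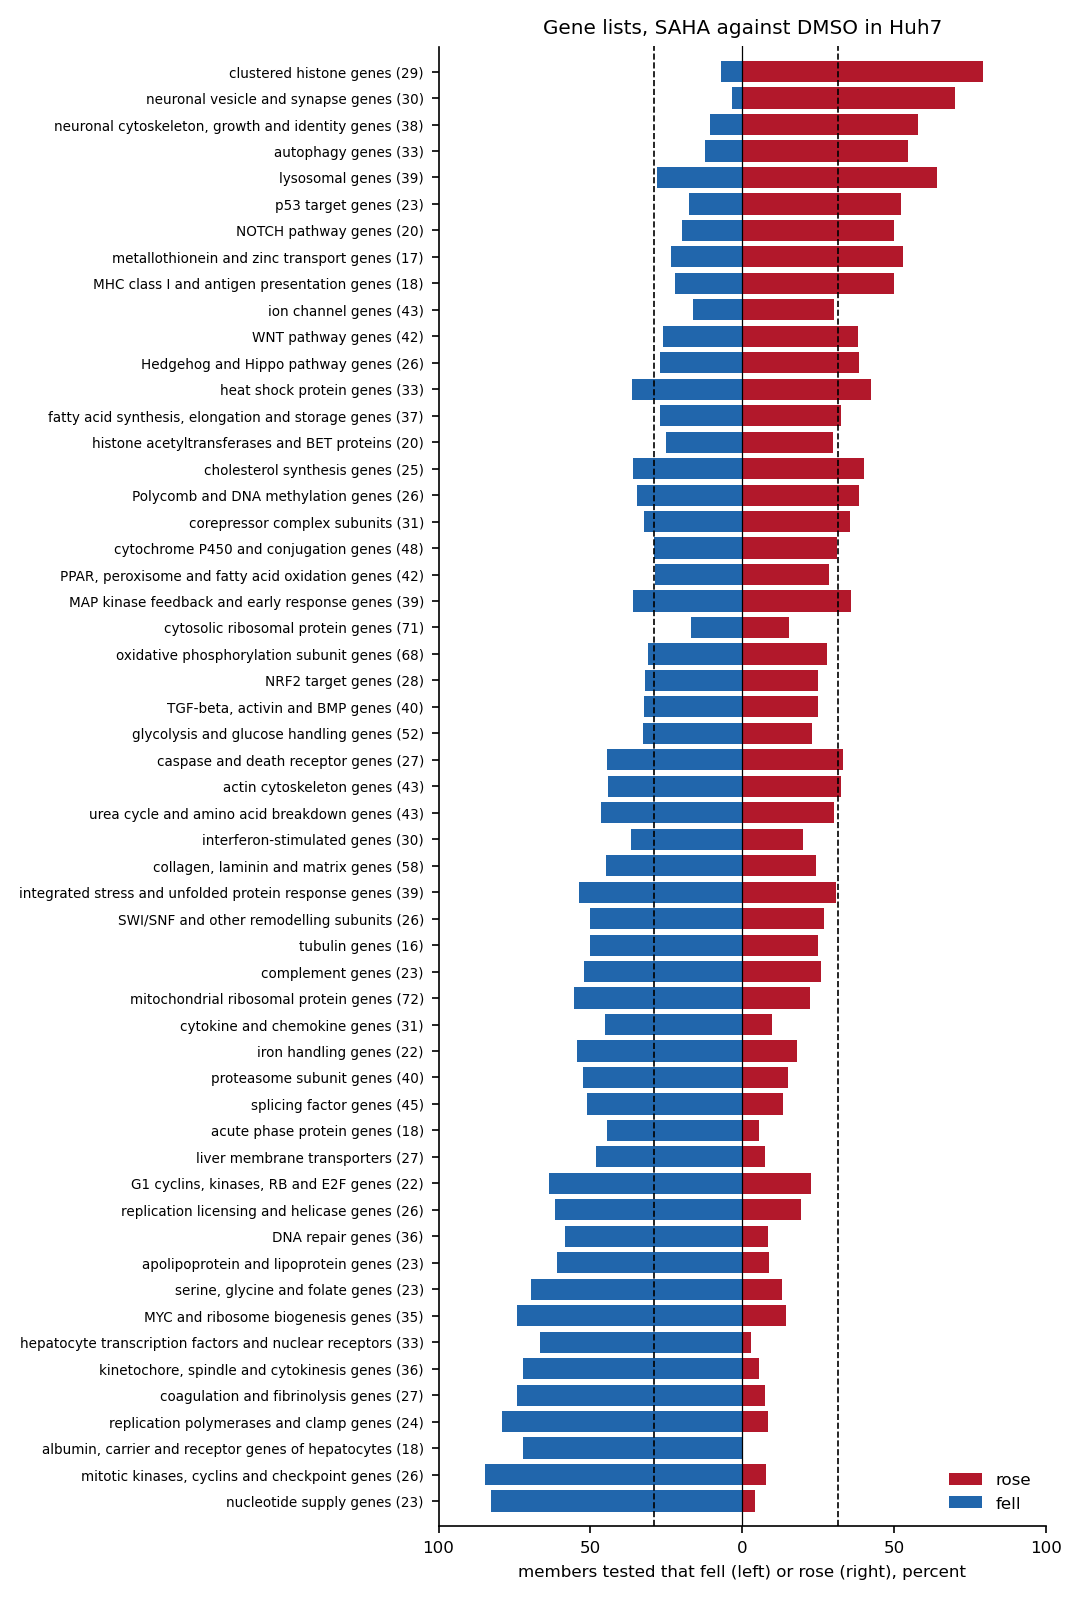
Share of tested members that rose (right) or fell (left) with SAHA in Huh7, in percent, for 55 gene lists, with the number tested in brackets; the dashed lines mark the shares over all 12973 genes, 31.6% and 29.1%. Clustered histone, neuronal, lysosomal and autophagy lists lean to the right, and replication, mitotic, carrier, coagulation and ribosome biogenesis lists to the left.

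Enzymes of drug and hormone metabolism were divided. Of the cytochrome P450 and conjugation genes 15 of 48 members tested rose and 14 fell (median change -0.04). Both shares were near those over all genes tested, 31.6% and 29.1%. CYP2R1, the vitamin D 25-hydroxylase, rose by 2.27, CYP2S1 by at least 3.15-fold and AKR1C3 by 1.53; SULT2A1, which sulfates steroids and bile acids, fell by 1.78 and UGT2B7 by 1.68. A second, dim probe of CYP2S1 gave 0.30.

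Amino acid enzymes were divided too. Of the urea cycle and amino acid breakdown genes 13 of 43 members tested rose and 20 fell (median change -0.25). FTCD, which breaks down histidine, rose by 2.73, CTH, which makes cysteine, by 2.54 and AASS of lysine breakdown by at least 3.74-fold; KYNU of tryptophan breakdown fell by 2.69, CBS by 1.46 and BHMT2 by 2.43, opposite to BHMT. Serine, glycine and folate genes mostly fell: 3 of 23 members tested rose and 16 fell (median change -1.12). The mitochondrial folate enzymes MTHFD1L and MTHFD2 fell by 2.05 and 1.73, the folate carrier SLC19A1 by 2.58 and PHGDH, the first step of serine synthesis, by 1.22.

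Glycolysis genes had no common direction. Of the list, 12 of 52 members tested rose and 17 fell (median change -0.02), beside 31.6% and 29.1% over all genes tested. Besides HK1 and SLC2A3, the muscle form of phosphofructokinase PFKM rose by 2.92 and the neuronal enolase ENO2 read 6.27, 6.54, 5.96 and 6.26 on the DMSO arrays and 8.33, 8.42, 8.72 and 8.85 on the SAHA arrays, a rise of 2.32 (SE 0.16, adjusted p = 1.2e-13). ENO1, the common enolase, fell by 1.06, the muscle enolase ENO3 by 1.65, GPI by 1.60 and PFKFB3, which makes the activator of phosphofructokinase, by 1.77.

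Lipid genes showed no common direction. Of the fatty acid synthesis, elongation and storage genes 12 of 37 members tested rose and 10 fell (median change -0.08). Here and in the PPAR list below, the shares were near those over all genes tested, 31.6% and 29.1%. ELOVL4 and ELOVL3, which lengthen very long chains, rose by 5.24 and at least 3.48-fold, and SREBF1, the sterol-regulated transcription factor, by 2.15; GPAM, which starts glycerolipid synthesis, fell by 2.72, and the lipid droplet genes CIDEB and CIDEC by 2.28 and 2.61. Of the PPAR, peroxisome and oxidation genes 12 of 42 members tested rose and 12 fell (median change -0.06): the coactivator PPARGC1A and PDK4 rose by 2.00 and 1.76, and the droplet coat PLIN2 fell by 2.91. Of the cholesterol synthesis genes 10 of 25 members tested rose and 9 fell (median change 0.20), with a median of -0.14 where each array was scaled to one median. INSIG1, the sterol sensor's anchor, rose by 2.66.

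Genes for assembling ribosomes fell, and most of those for the ribosomal proteins of the cytosol were not called. Of the MYC and ribosome biogenesis genes 5 of 35 members tested rose and 26 fell (median change -0.70). RRS1 and DKC1 fell by 1.59 and 1.06, and the MYC antagonist MXD1 rose by 1.83. Of the cytosolic ribosomal protein genes 11 of 71 members tested rose and 12 fell (median change 0.03), and the other 48 were not called. Of the mitochondrial ribosomal protein genes 16 of 72 members tested rose and 40 fell (median change -0.46), with MRPL9 and MRPS15 lower by 1.88 and 1.44. Of the oxidative phosphorylation subunits 19 of 68 members tested rose and 21 fell (median change -0.01), near the 31.6% and 29.1% over all genes tested. Proteasome genes gave 6 of 40 members tested rose and 21 fell (median change -0.27); PSMB10, a subunit of the immunoproteasome, fell by 2.74 while PSMB9, another, rose by at least 1.29-fold. Splicing factor genes gave 6 of 45 members tested rose and 23 fell (median change -0.29), with U2AF2 and SRSF2 lower by 1.61 and 1.22.

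Stress genes moved in both directions. Of the integrated stress and unfolded protein response genes 12 of 39 members tested rose and 21 fell (median change -0.39). ATF3, an early stress transcription factor, read 8.10, 8.23, 8.41 and 8.34 on the DMSO arrays and 11.17, 11.37, 10.90 and 11.04 on the SAHA arrays, a rise of 2.85 (SE 0.17, adjusted p = 3.39e-15). DDIT3, which encodes CHOP, rose by 1.40, and SYVN1 and SEL1L, which clear misfolded proteins from the endoplasmic reticulum, by 0.96 and 1.23. XBP1 read 13.32, 13.64, 13.57 and 13.64 on the DMSO arrays and 11.30, 11.35, 11.03 and 11.20 on the SAHA arrays, a fall of 2.32 (SE 0.13, adjusted p = 3.91e-16) with no overlap. The chaperone HSPA5 fell by 1.23, ATF5 by 3.27, NUPR1 by 2.68 and the amino acid transporter SLC7A5 by 2.06. Heat shock genes gave 14 of 33 members tested rose and 12 fell (median change -0.13), with a median of 0.02 over the mean of each gene's probes; the co-chaperone DNAJC12 and the testis form HSPA2 rose by 2.69 and 1.69, and HSPH1 and HSPE1 fell by 1.71 and 1.22.

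Antioxidant genes were divided, and metal genes had clear single changes. Of the NRF2 targets 7 of 28 members tested rose and 9 fell (median change -0.09), near the 31.6% and 29.1% over all genes tested. TXNRD1 and SRXN1 rose by 1.64 and 1.46, and HMOX1 fell by 1.23. The glutathione peroxidases GPX2 and GPX1 fell by 3.22 and 2.29. Of the metallothionein and zinc transport genes 9 of 17 members tested rose and 4 fell (median change 0.95); MT1A and MT1E rose by 2.27 and 1.97, though such probes may bind close relatives, and the zinc exporter SLC30A1 by 1.94. Iron genes gave 4 of 22 members tested rose and 12 fell (median change -0.36). HAMP encodes hepcidin, the hormone that closes the iron exporter, and read 11.97, 11.66, 11.57 and 11.63 on the DMSO arrays and 7.84, 8.35, 8.10 and 7.86 on the SAHA arrays, a fall of 3.67 (SE 0.26, adjusted p = 2.06e-13). SLC40A1 encodes that exporter, ferroportin, and read 9.50, 9.78, 9.37 and 9.56 on the DMSO arrays and 12.59, 12.74, 12.70 and 12.77 on the SAHA arrays, a rise of 3.15 (SE 0.14, adjusted p = 3.07e-18). Neither gene's groups overlapped. BMP6, which induces hepcidin in liver, rose by 2.42, and its co-receptor HJV fell by at least 3.92-fold.

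Most of the neuronal genes tested rose. Of the vesicle and synapse genes 21 of 30 members tested rose and 1 fell (median change 0.70), and of the neuronal cytoskeleton, growth and identity genes 22 of 38 members tested rose and 4 fell (median change 0.43). The array held 42 and 52 members of these lists, and those not tested were detected on too few arrays. A gene silent in the controls could be tested because SAHA arrays detected it. How far this raised the shares that rose was not tested. PCSK1N, an inhibitor of the prohormone convertase, read 6.43, 6.36, 5.62 and 6.07 on the DMSO arrays and 10.27, 9.57, 10.44 and 10.28 on the SAHA arrays. SAHA array 2 was the lowest of its group and still far above every DMSO array, and the rise was 4.02 (SE 0.18, adjusted p = 3.07e-18). STX1A, which drives vesicle fusion, rose by 2.23. APLP1, a relative of the amyloid precursor, rose by 3.70, the neuronal kinesin KIF5C by 3.31, CNTN1 by at least 4.48-fold and BEX1 by 2.76. MAPT, the gene of tau, was detected on no DMSO array and all SAHA arrays by one probe, at least 4.03-fold higher, and its other probe was detected on none of the 8. The postsynaptic scaffold SHANK2 fell by 2.22, as did CNTNAP1 by 2.24. Ion channel genes as a whole gave 13 of 43 members tested rose and 7 fell (median change 0.04); the potassium channels KCNH3 and KCNH2 rose by at least 4.44-fold and 1.92. Of 35 cancer testis genes on the array 10 were tested, and 7 of these were detected on any Huh7 DMSO or SAHA array. Their median DMSO signal was 5.05, near background, where few falls can be measured. Of the 10 tested 2 rose and none fell, beside 31.6% and 29.1% over all genes tested. PAGE1 rose by at least 1.86-fold and BRDT by 0.84, and MAGEA1 gave -0.13, adjusted p = 0.587.

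Cell surface and immune genes changed in part. Of the MHC class I and antigen presentation genes 9 of 18 members tested rose and 4 fell (median change 0.45). MICB, a stress ligand seen by natural killer cells, rose by 2.83, HLA-E by 1.93 and the peptide transporter TAP1 by 1.37, while PVR fell by 1.97. Of the interferon-stimulated genes 6 of 30 members tested rose and 11 fell (median change -0.24); IFI6 and IFIT1 rose by 3.47 and 2.40, and IFITM2 and ISG20 fell by 3.28 and 2.65. Of the cytokines and chemokines 3 of 31 members tested rose and 14 fell (median change -0.37), with CXCL5 and CCL20 lower by 2.98 and 2.21 and TNFSF9 higher by 2.53. None of 13 S100 genes rose and 6 fell, S100A16 by 3.64. The NF-kappaB subunits went apart: NFKB1 fell by 1.89 and RELA rose by 0.86.

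Structural genes followed no single direction. Of the tubulin genes 4 of 16 members tested rose and 8 fell (median change -0.18): TUBB, TUBA1C and TUBA1B fell by 2.26, 2.01 and 1.73, and TUBB2B, a neuronal form, rose by 1.23. Of the actin cytoskeleton genes 14 of 43 members tested rose and 19 fell (median change -0.22). CDC42EP1, ZYX and VIL1, the villin of brush borders, fell by 2.66, 2.17 and 1.83, and the severing proteins SCIN and GSN rose by 1.84 and 1.27. Of the collagen, laminin and matrix genes 14 of 58 members tested rose and 26 fell (median change -0.09): COL4A1 and SDC1 fell by 2.48 and 1.83, and COL6A3 and MMP9 rose by at least 2.71-fold and at least 2.19-fold. The junction genes TJP3 and CLDN10 rose by 3.17 and at least 3.5-fold, and CLDN1 and CRB3 fell by 1.78 and 1.92.

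Signalling genes moved in both directions. Of the NOTCH list 10 of 20 members tested rose and 4 fell (median change 0.38), with a median of -0.04 over the 9 members detected on all 32 arrays. The ligand DLL3 rose by 2.94, the receptor NOTCH3 by at least 3.11-fold, and the target repressors HEY1, HEY2 and HEYL by 2.38, 2.50 and 2.26. FOS read 5.42, 5.27, 5.54 and 5.68 on the DMSO arrays and 8.96, 8.85, 8.59 and 8.78 on the SAHA arrays. One DMSO array was not detected, the groups did not overlap, and the rise was 3.32 (SE 0.18, adjusted p = 4.82e-16). EGR1 rose by 2.64 and the phosphatases DUSP1 and DUSP6 by 1.76 and 1.66, while ETV4 and DUSP9 fell by 1.97 and 1.14. Over the whole early response and feedback list 14 of 39 members tested rose and 14 fell (median change -0.05). The shares over all genes tested were 31.6% and 29.1%.

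Receptor kinases of the ERBB family parted. ERBB2 read 10.42, 10.18, 10.18 and 10.12 on the DMSO arrays and 6.94, 6.59, 6.72 and 7.12 on the SAHA arrays, a fall of 3.38 (SE 0.14, adjusted p = 2.69e-19), and ERBB3 fell by 2.88, while EGFR rose by 1.13 and its ligand HBEGF by 2.99. The receptors FGFR3 and FGFR4, the second the fibroblast growth factor receptor of hepatocytes, fell by 1.86 and 1.46. AKT1, a kinase of growth signalling, fell by 1.25 by its brightest probe. IGFBP2 rose by 3.04.

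Genes that restrain WNT went both ways: beside DACT3, NKD2 rose by 2.38, DKK3 by 2.19 and SFRP1 by at least 2.12-fold, while DACT2 fell by 2.43 and RNF43 by 0.88. The co-receptor LRP5 fell by 1.89, and of the list 16 of 42 members tested rose and 11 fell (median change 0.10), with a median of -0.01 where each array was scaled to one median. Of the TGF-beta, activin and BMP genes 10 of 40 members tested rose and 13 fell (median change -0.11). The shares over all genes tested were 31.6% and 29.1%. INHBB fell by 2.58 beside INHBE, and LTBP4, which stores latent TGF-beta, rose by at least 5.03-fold. In the Hippo and Hedgehog list 10 of 26 members tested rose and 7 fell (median change -0.08): TEAD2 and YAP1 fell by 2.54 and 1.47, although CCN1 and CCN2, known YAP targets, rose by 2.25 and 1.08. Among KLF and SP factors KLF2 and KLF6 rose by 2.25 and 1.37, and SP1, which binds the GC box, fell by 0.93.

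Markers of other cell types were partly below detection. Of 9 leukocyte markers 2 were detected on all 8 arrays and CD3E and TYROBP on none; their summed signal was 4110 to 4600 on the DMSO arrays and 1140 to 1470 on the SAHA arrays, mostly from CD14, which fell by 2.38. Of 7 fibroblast markers 3 were detected on all arrays and COL3A1 and THY1 on none, with sums of 338 to 429 and 671 to 745, and COL1A2 rose by 2.60. Of 5 endothelial markers PECAM1 was detected on all arrays and CDH5, VWF and TEK on none, with sums of 198 to 221 and 175 to 190. Of 4 cholangiocyte markers 2 were detected on all arrays and KRT7 on none, with sums of 7150 to 7740 and 6050 to 7040. Other members of these lists were detected: CD68, COL1A1 and LUM on all 8 arrays. CD3D and LYZ were detected on all 4 DMSO arrays and on 3 and 2 SAHA arrays. The part of other cells in the results was not tested. In bulk RNA, fewer cells with a transcript and less of it per cell cannot be told apart.

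Where the response of Huh7 differed from that of HepG2 was tested in the same model, and 52.2% of genes differed at an adjusted p under 0.05. DNER changed by 4.88 in Huh7 and 0.36 in HepG2 (adjusted p of the difference = 2.03e-16), MIR7-3HG by 4.40 and -0.15 (1.34e-16), KCNAB1 by 4.18 and 0.00 (5.84e-14), and FTCD by 2.73 and -1.60 (8.1e-18). In HepG2 the probes of DNER, MIR7-3HG and KCNAB1 were detected on at most 2 of 8 arrays, so their change there is little more than background. In the other direction DEFB1, an epithelial defensin, changed by -2.03 in Huh7 and rose at least 58.5-fold in HepG2, where no DMSO array detected it (1.48e-26). CLRN3 changed by -3.52 and 3.27 (6.41e-20), and S100A9 fell at least 1.89-fold in Huh7, where no SAHA array detected it, and changed by 8.31 in HepG2 (3.1e-23). OSTbeta fell at least 15-fold in Huh7 and changed by 0.11 in HepG2 (5.3e-18), HAMP changed by -3.67 and 0.85 (1.24e-11) and CCND1 by -2.43 and 0.27 (1.98e-16). HK1 and SLC40A1 gave 4.90 and 3.15 in Huh7 and 4.57 and 2.88 in HepG2, differences that did not pass (adjusted p = 0.259 and 0.283).

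The response was also set against that of Huh7 to HDAC2 siRNA, with no shared arrays, and 54.8% of genes differed. The Huh7 controls of the 2 experiments were not at the same level for every gene. The DMSO mean and the scrambled siRNA mean were at least 1 log2 unit apart for 1077 genes (8.3%). Among them were CDKN1A (8.76 and 10.04), TM4SF4 (9.42 and 8.30), HPN (8.67 and 6.21), HABP2 (9.40 and 8.34) and MACROH2A2 (10.59 and 9.35). The part of the controls in the differences given next was not tested. HK1 changed by 4.90 with SAHA and -0.49 with the siRNA (adjusted p of the difference = 1.02e-17), and SLC2A3 by 4.66 and -0.12 (2.97e-20). CDKN1A gave 3.22 and -1.49 (1.55e-21). TM4SF4 and HABP2, both liver genes, fell by 4.07 and 4.07 with SAHA and changed by 3.11 and 3.04 with the siRNA (9.18e-23 and 1.91e-21). MACROH2A2 changed by -4.67 and 1.20 (3.5e-21), and HPN, a liver membrane protease, by -2.42 and 4.12 (2.97e-20).

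**Figure D5:**
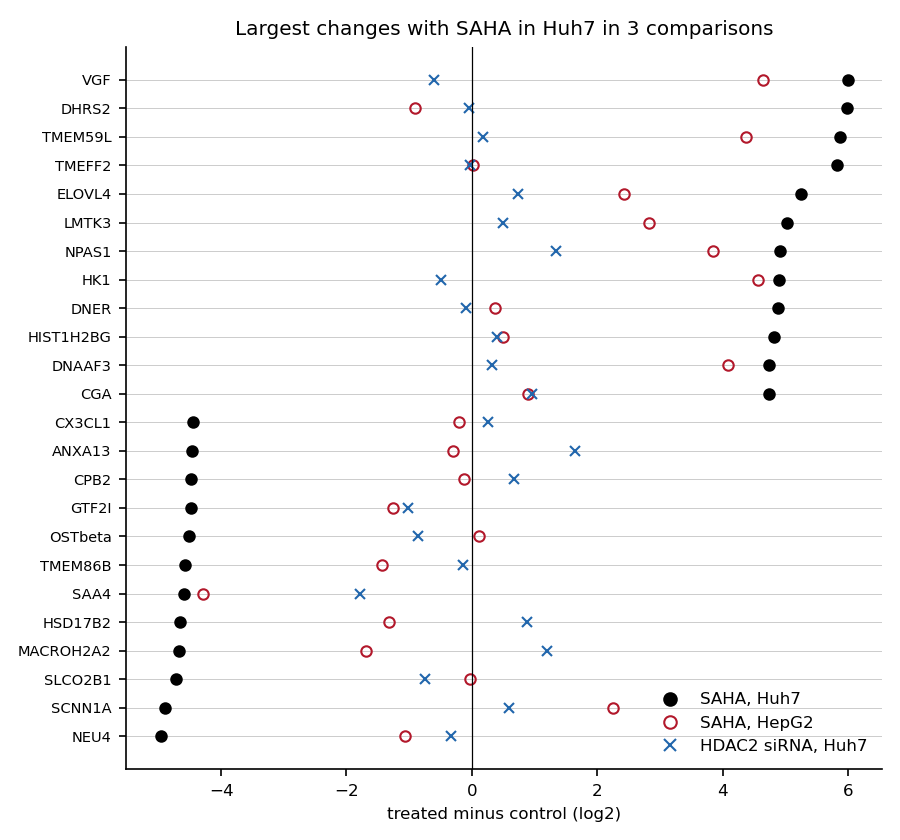
Log2 change of the 12 largest rises and 12 largest falls with SAHA in Huh7 (filled circles), beside the change of the same genes with SAHA in HepG2 (open circles) and with HDAC2 siRNA in Huh7 (crosses). The values are fitted, also where a group lay below detection, and the genes were chosen for their Huh7 values; many HepG2 values lie nearer to 0, and the siRNA values shown lie between -2 and 2.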

How the data were processed

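RNA from 32 samples was measured on Illumina bead arrays, 4 in each of 8 groups, and groups and replicate numbers were taken from the sample titles. The deposited raw table gives, per the file headers, 1 summarized bead intensity and 1 detection p-value for each of 24526 probes and each array. A second deposited table holds the authors' normalized intensity values, which are background-subtracted and share 1 distribution over the arrays, as the values show. GenomeStudio 2011.1 is named in the submitters' processing notes; the settings of its steps are not stated there or in the headers. The number of arrays limits the precision of every value.

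From the raw intensities, background was corrected by normexp from the detection p-values with an offset of 16 and all 32 arrays were quantile-normalized together (limma 3.58.1 in R 4.3.3). Probes with a detection p under 0.05 on at least 4 arrays were kept (16121), and the probe with the highest mean stood for each gene (12973). A limma model with 8 group means (24 residual and 5.66 prior degrees of freedom) gave each comparison, with Benjamini-Hochberg adjustment over all genes and a threshold of 0.05. Symbols were updated through a RefSeq gene table: of the probes 20406 had a current symbol, 3265 an older one and 855 none that matched.

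In simulated data with the spread of these arrays, 30.6%, 94.3% and 100% of changes of log2 size 0.5, 1 and 2 were recovered for SAHA against DMSO in Huh7 (12973 genes), and 9 of 12773 unchanged genes were called. The simulation changed 62, 70 and 68 genes by these sizes, a far smaller share than the 60.6% called in the data. The adjusted p depends on that share, so the rates need not hold for the data.

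Genes were named by rule: the 20 largest rises and falls with no overlap, up to 6 members of each list in each direction by adjusted p, any member of lists of up to 12, the 15 largest bounds each way, the 8 largest differences each way from the other comparisons, and the 15 brightest genes, with fewer printed; some genes are not reported here. Markers, and genes said to be chosen otherwise, fall outside it. The comparison and the gene lists were chosen with earlier results of these data known. Promoter sequences came from RefSeq. Alternatives changed the background correction, normalization, arrays, filter, probe choice, threshold and replicate block.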

Additional observations from a re-analysis of the deposited data

Results flagged for a closer look

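Among the 317 genes named above with a value, each in 2 groups of 4 Huh7 arrays, 35 of 634 groups (5.52%) had 1 array far from the other 3 by Dixon's criterion. Chance gives about 1 in 20 groups. SAHA array 4 stood apart for 9 genes, DMSO array 3 for 7, DMSO array 2 for 6, and each of the other arrays for 1 to 4. The values are log2 signals, each with the range of the other 3 arrays of its group.

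On DMSO array 1, CPN1 read 8.57 (others 8.38 to 8.40) and MTTP read 10.61 (others 10.43 to 10.44), above the other 3. On the same array, RRM2 read 8.69 (others 9.39 to 9.47) and UHRF1 read 5.66 (others 6.54 to 6.67), below the other 3. On DMSO array 2, CDKN1B read 9.21 (others 9.05 to 9.07), COL1A2 read 5.90 (others 5.38 to 5.43) and KYNU read 8.00 (others 7.73 to 7.76), above the other 3. On the same array, BHMT2 read 7.26 (others 7.67 to 7.71), FGFR4 read 11.60 (others 11.81 to 11.83) and ISG20 read 9.94 (others 10.16 to 10.18), below the other 3. On DMSO array 3, BMP6 read 5.97 (others 5.07 to 5.13), CFLAR read 8.53 (others 8.25 to 8.29) and HAND1 read 4.98 (others 4.61 to 4.67), above the other 3. On the same array, CD59 read 6.45 (others 6.81 to 6.84), HEY1 read 5.96 (others 6.62 to 6.75), HSPA5 read 10.16 (others 10.26 to 10.28) and TAP1 read 5.98 (others 6.38 to 6.42), below the other 3. On DMSO array 4, ARRDC4 read 5.13 (others 4.80 to 4.85) and DNER read 5.47 (others 4.94 to 4.96), above the other 3. On SAHA array 1, AADAC read 5.19 (others 4.72 to 4.79) and JARID2 read 9.39 (others 9.26 to 9.27), above the other 3. On the same array, FEN1 read 11.33 (others 11.49 to 11.52) and MICB read 9.71 (others 9.88 to 9.90), below the other 3. On SAHA array 2, DLL3 read 8.38 (others 8.79 to 8.86) and SYVN1 read 10.20 (others 10.39 to 10.41), below the other 3. On SAHA array 3, IFI6 read 12.04 (others 11.89), above the other 3. On SAHA array 4, CIDEB read 6.18 (others 5.06 to 5.25), CYP2S1 read 7.11 (others 6.95 to 6.97) and RRS1 read 8.55 (others 8.01 to 8.09), above the other 3. On the same array, C3 read 6.36 (others 7.22 to 7.31), CDC42EP1 read 6.51 (others 7.06 to 7.12), CLRN3 read 5.74 (others 6.54 to 6.70), DNMT1 read 11.92 (others 11.99 to 12.00), HSD17B2 read 4.60 (others 4.88 to 4.92) and MT1A read 13.36 (others 13.46 to 13.47), below the other 3. These arrays were kept in every value; for the named genes among them, leaving one out ended no call.

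The change with SAHA differed between the lines for 10 genes described above, by the test of the difference in the limma model (adjusted p between 1.24e-11 and 1.48e-26). HepG2 minus Huh7 was -4.52 for DNER, -4.55 for MIR7-3HG, -4.18 for KCNAB1 and -4.33 for FTCD. It was 8.50 for DEFB1, 6.79 for CLRN3, 9.54 for S100A9, 4.62 for OSTbeta, 4.52 for HAMP and 2.70 for CCND1. These are fitted values: DEFB1 was detected on no HepG2 DMSO array and S100A9 and OSTbeta on no Huh7 SAHA array, and with those arrays raised to their lowest detected signal the differences are at least 7.90, 9.24 and 4.02. The value of DNER, MIR7-3HG and KCNAB1 in HepG2 was at or near background. FTCD rose in Huh7 and fell in HepG2, and DEFB1, CLRN3, S100A9 and HAMP fell in Huh7 and were higher with SAHA than with DMSO in HepG2. HAMP changed by 0.85 in HepG2. Genes with differences this size were chosen for that size, so the values are a description of these arrays.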

How the results depend on the processing

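Over the alternative settings for SAHA against DMSO in Huh7 the called genes numbered 7868 in the fit reported and between 7499 and 7953 in the settings that gave 1 value a gene and tested at least 10912 genes; leaving out 1 array gave 7499 to 7632. With only probes detected on all 32 arrays 7255 genes were left, of which 5343 were called (2696 higher, 2647 lower), and 4390 differed between the lines, both from fewer genes tested. Requiring 2-fold as well left 3129. At a detection p under 0.01, 294 genes were detected on all DMSO arrays and no SAHA array. Of 317 named genes 309 stayed on the same side of the threshold in the settings that gave them a value; CDKN1B, HDAC1, HDAC2, NEK2 and RBL2 crossed it under median scaling, CD59 under the mean of probes, and RB1 and HDAC6 without 1 array. Medians of gene lists changed sign in 9 of 935 cases: under median scaling for WNT (-0.01), cholesterol synthesis (-0.14) and corepressor genes (-0.12), with no detection filter for remodelling subunits (0.02), with only probes detected on all arrays for NOTCH (-0.04) and complement genes (0.20), for heat shock genes with the mean of probes (0.02) and with every probe singly (0.12), and for corepressor genes without SAHA array 2, where leaving out 1 array gave -0.01 to 0.12. The cause of the sign changes was not tested. With the replicate block 7812 genes were called; deviations of same-numbered DMSO and SAHA arrays correlated at -0.10, 0.26, -0.03 and -0.01, so the numbers were not taken to pair the arrays, and the block changed no named call. Probes near background limit what falls could be seen.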

Other observations

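The control arrays of Huh7 differed between the experiments. On all 4 DMSO arrays and on none of the 4 scrambled siRNA arrays, 104 genes were detected, and 62 showed the reverse. The genes given next were picked after their values were seen. HAMP, the hepcidin gene, averaged 11.71 with DMSO and 4.92, below detection, with scrambled siRNA, and its fall with SAHA to 8.04 left it detected on all 4 SAHA arrays. SCNN1A, a sodium channel subunit, averaged 10.58 and 5.05, and MYCN, a MYC family gene, 10.01 and 6.02. In the other direction CXCL10, an interferon-induced chemokine, averaged 4.99 and 8.40, GBP1, an interferon-induced GTPase, 6.25 and 10.28, and CYP1A1, a detoxifying cytochrome, 6.87 and 10.87. These values compare separate experiments and were not tested.

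Calls were not spread evenly over chromosomes. On chromosome 22, 24.7% of 316 genes rose and 39.2% fell, and on chromosome 7, 38.6% of 586 rose and 25.1% fell, against 31.6% and 29.1% over all genes. Families given by a shared symbol stem also differed: of 320 zinc finger genes with the stem ZNF 107 rose and 66 fell, of 50 RAB GTPases, which steer vesicles, 23 rose and 10 fell, and of 29 UBE2 enzymes, which carry ubiquitin, 7 rose and 15 fell. Chromosomes and stems were picked after their values were seen.

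Of the brightest probes of the DMSO arrays, TUBA1B, a tubulin gene, fell by 1.73 and RPSA, a ribosomal protein gene, by 0.61. LAIR1, a receptor gene of leukocytes, was also among them, at 15.17 to 15.18 on the DMSO arrays and 15.15 to 15.27 on the SAHA arrays (change 0.06, adjusted p = 0.649); whether this probe reads that transcript was not tested.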
